A study of Mus musculus with 12 samples.

Results

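The cytosolic ribosomal protein genes were followed in cells sorted by fluorescence from mouse islets and labelled as beta cells, which produce insulin. Members were taken by symbol. They were genes whose name starts with Rpl or Rps and a digit, plus Rplp0, Rplp1, Rplp2 and Rpsa, leaving out the Rps6k kinases, names holding -ps and names ending in l or l plus a digit. Read to the letter, the last clause would also remove Rpl3, Rpl4, Rpl5, Rpl6 and Rpl9, so it was applied to what follows the gene's number. A probe on the array was named for 60 such genes, and 55 of them, among 9193 genes tested in all, lay above background on at least 2 samples. Rpl6, Rpl17, Rplp2, Rps23 and Rpsa were above background on 0 samples and are not described further. The 55 hold 30 proteins of the large subunit, 21 of the small subunit and 2 of the P stalk. The remaining 2, Rps19bp1, which encodes a protein that binds RPS19, and the retrogene Rps23rg1, fit the naming rule without being ribosomal proteins proper.

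All 12 samples came from mice heterozygous for a Pdx1-GFP transgene on a cross with the ICR strain. The Pdx1 promoter, which drives the green fluorescent protein, belongs to a transcription factor of the pancreas that is active in beta cells and in some other islet cells. Islets were dissociated with trypsin and the fluorescent cells were sorted. There were 4 samples of E18.5, a late embryonic stage, 3 of postnatal day 1 (P1), 2 of postnatal day 10 (P10) and 3 of adults at 5 weeks, and the groups differ in age alone, as far as the labels say. Nothing in the labels tells whether replicates are separate animals or litters, so the p-values cover only the spread between these samples, which may be technical.

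A ribosome is built from ribosomal RNAs and a copy of most ribosomal proteins, divided between a small subunit that reads the mRNA and a large subunit that joins amino acids. Many ribosomal protein mRNAs begin with a run of pyrimidines, the terminal oligopyrimidine or TOP tract, through which the mTORC1 pathway controls their translation. In beta cells the ribosome carries the heavy load of proinsulin synthesis.

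Levels are log2 intensities after background correction and quantile normalization, and describe one probe per gene, so levels of different genes are not compared as amounts of mRNA. In a sorted bulk sample, fewer cells of a type and less RNA per cell cannot be told apart. Per array, 40% to 48.3% of probes were above background, and precision is limited by the number of arrays. Of 15 beta cell markers, 12 had a tested probe, and each of these 12 was above background at every age. Markers of other islet endocrine cells, among them Gcg, Sst, Ppy and Ttr, were also strong, with summed log2 levels from 14.23 to 15.41 over the 12 samples and the lowest in adult replicate 3. The acinar cell markers, genes of the digestive enzyme cells around the islets, moved with age: 23 of 24 tested were higher at P10 than at P1 and 24 of 24 in adults than at E18.5. Of all genes, 5.57% and 18.7% were higher in these comparisons. Their summed log2 level ran from 9.99 to 11.83 at E18.5, from 10.34 to 12.89 at P1, from 14.86 to 16.16 at P10 and from 15.14 to 16.44 in adults. Of the listed acinar genes with a probe, Amy1 was below background in all samples, Ptf1a up to P10, Rbpjl at E18.5 and P1, and Pnliprp2 at E18.5.

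The sequences around the start of 10 members are printed here because a pyrimidine run at the start is a feature known for many of these mRNAs, though not every window holds a long one. Each is 30 bases from RefSeq (GRCm38.p6), 15 before and 15 from the annotated first base on, 5′ to 3′ on the gene's strand, and the capitals mark the longest run of C and T in the window. The first 5 were among the 6 largest falls in a comparison and Rpl27a fell around birth. Rpl35 was chosen for its long run, and Rpl9, Rpl23 and Rps6 for their levels in adults, which were not below those at E18.5.
Rplp0 (chr5:115559452-115559481, plus strand): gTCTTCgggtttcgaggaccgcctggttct
Rpl13a (chr7:45128731-45128760, minus strand): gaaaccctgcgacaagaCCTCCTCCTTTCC
Rpl28 (chr7:4792950-4792979, plus strand): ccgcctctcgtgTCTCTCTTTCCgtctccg
Rps10 (chr17:27635230-27635259, minus strand): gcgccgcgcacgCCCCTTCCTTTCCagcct
Rps15a (chr7:118116133-118116162, minus strand): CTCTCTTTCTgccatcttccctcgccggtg
Rpl27a (chr7:109519180-109519209, plus strand): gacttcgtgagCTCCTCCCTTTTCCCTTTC
Rpl35 (chr2:39005117-39005146, minus strand): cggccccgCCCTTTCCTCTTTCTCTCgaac
Rpl9 (chr5:65391417-65391446, minus strand): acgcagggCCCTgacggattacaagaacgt
Rpl23 (chr11:97782425-97782454, minus strand): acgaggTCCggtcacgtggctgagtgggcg
Rps6 (chr4:86857353-86857382, minus strand): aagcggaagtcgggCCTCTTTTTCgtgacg

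Of these windows, that of Rpl27a held the longest run, 19 bases, and that of Rpl23 the shortest, 3 bases. Annotated starts need not be the starts used in these cells.

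The members as a group were lower at P10 and in adults than before and just after birth. The mean log2 level over the 55 members was 10.42 ± 0.08 at E18.5 (SD, n = 4, from 10.33 to 10.53) and 10.36 ± 0.07 at P1 (SD, n = 3, from 10.29 to 10.43). It was 10.10 in both samples of P10 and 10.13 ± 0.08 in adults (SD, n = 3, from 10.04 to 10.19). No sample of the later ages reached the lowest sample of the earlier ages.

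By the moderated F-test over the 4 ages, 23 of the 55 members, or 41.8%, differed between some ages, against 43.9% of all genes tested. The members' share was therefore near that of the array. The difference was below 0 for 48 of 55 members in P10 against P1, against 49.9% of all genes, and for 48 of 55 in adults against E18.5, against 51.5%.

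**Figure D1:**
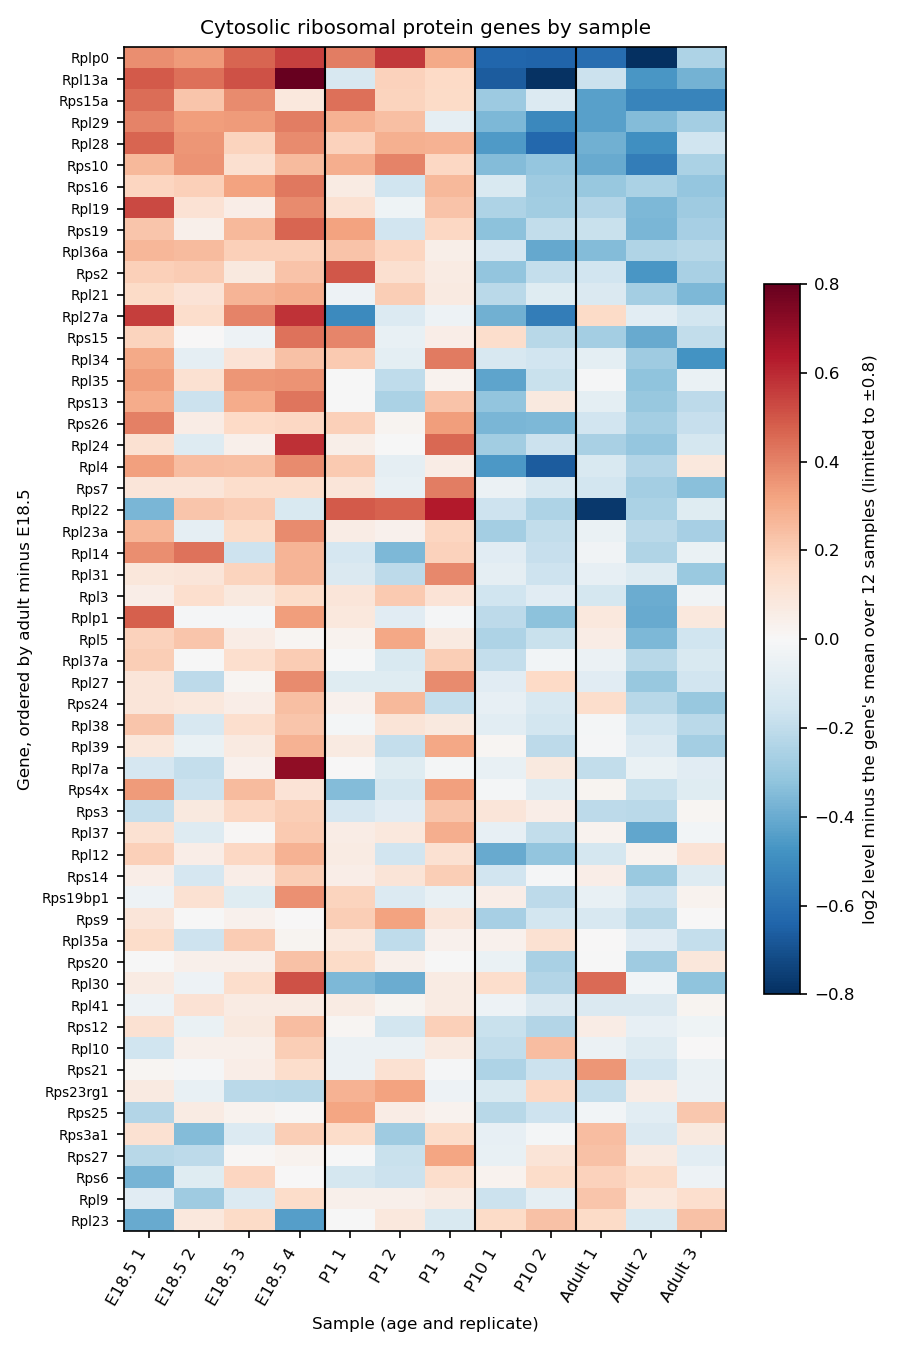
Log2 level of each of the 55 genes in each of the 12 samples, minus that gene's mean over the samples, with genes ordered by the difference between adults and E18.5 and colours limited to ±0.8. Red marks levels above the gene's mean and blue levels below it, and the upper rows turn from red at E18.5 and P1 to blue at P10 and in adults.

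Around birth few members moved. From E18.5 to P1, 2 members fell and 0 rose (limma, adjusted p below 0.05), which is 3.64% of the members against 5.47% of all genes (2.88% lower and 2.59% higher). Over all genes the 503 calls were as few as 114 when a sample was left out, here P1 replicate 2. Every P1 sample was below every E18.5 sample for 5 members, against 9.86% of all genes, and above for 1, against 10.3%. The median difference was -0.04 over the members and -0.01 over all genes.

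The larger fall was that of Rpl27a, a large subunit protein. Its log2 levels were 8.74, 8.33, 8.59 and 8.76 at E18.5 and 7.68, 8.08 and 8.15 at P1. They did not overlap, and the difference was -0.64 ± 0.14 (SE, limma adjusted p = 0.0198). The second probe of this gene, close to background, was lower by less, and with the mean of both probes the adjusted p was 0.116. Rpl13a, which in human monocytes also serves in a complex that silences inflammatory mRNAs, fell by 0.49 ± 0.12 (limma adjusted p = 0.033). Both calls ended without E18.5 replicate 4, P1 replicate 1 or P1 replicate 2, and that of Rpl13a also without E18.5 replicate 3 or P1 replicate 3, with adjusted p up to 0.12. With the replicate number as a block, both calls also ended (adjusted p of 0.0695 for Rpl27a and 0.103 for Rpl13a), and with the acinar term described further on that of Rpl13a did (adjusted p = 0.0822).

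Rpl22, whose protein lies near the exit of the nascent chain and is dispensable in mice, had levels of 7.51, 8.10, 8.08 and 7.75 at E18.5 and of 8.36, 8.34 and 8.51 at P1. The P1 samples all lay above those of E18.5, with a difference of 0.55 ± 0.17 that did not pass the threshold (limma adjusted p = 0.0724).

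The main shift lay between P1 and P10. In this comparison 12 members fell and 0 rose, 1.33-fold to 2.09-fold, and they came from the large subunit (6 of 30), the small subunit (5 of 21) and the stalk (1 of 2). The share of members called lower was 21.8%, against 6.15% of all genes and 5.8% of the 500 brightest other genes, and 0% were called higher, against 5.57%. At an unadjusted p below 0.05 in limma, 19 were lower and 0 higher. The median difference was -0.23 over the members, 0.00 over all genes and -0.02 over the 500 brightest other genes. Every P10 sample was below every P1 sample for 31 members (56.4%), against 22.8% of all genes, and above for 1 member, against 22.0%. That member was Rpl23, with a difference of 0.20, and its other probes had differences of -0.25, -0.41 and -0.24.

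**Figure D2:**
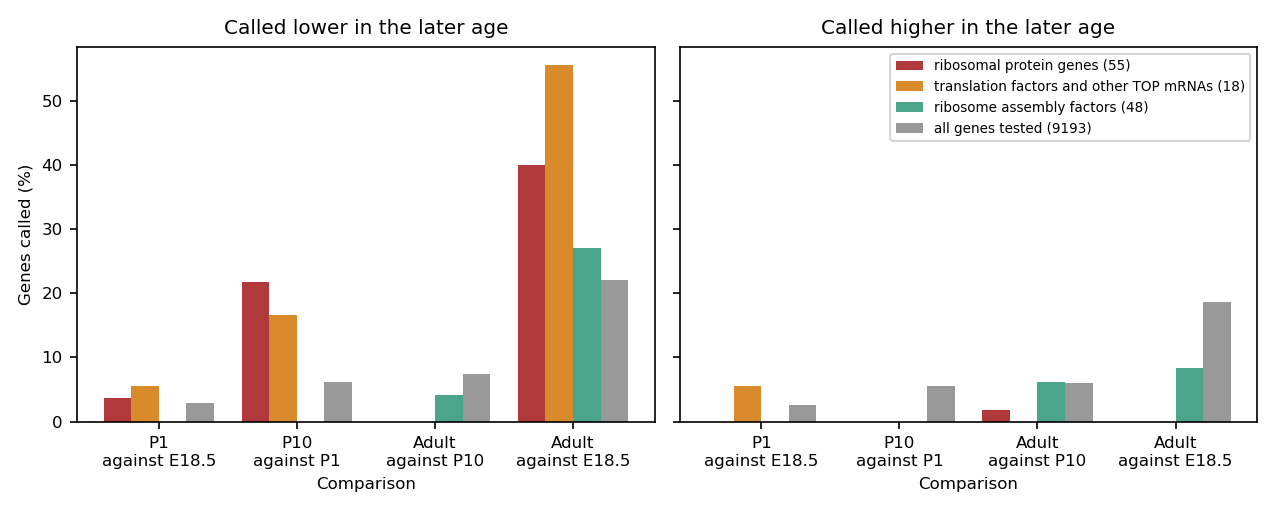
Percent of genes called lower (left) and higher (right) in the later age of each comparison by limma with an adjusted p below 0.05, for the 55 ribosomal protein genes, 18 genes of translation factors and other TOP mRNAs, 48 ribosome assembly factors and all 9193 genes. The bar of the ribosomal protein genes reaches 21.8% lower in P10 against P1 and 40% lower in adults against E18.5, and 1.82% higher in adults against P10.

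Rplp0, the core protein of the stalk that recruits elongation factors, fell most. Its log2 levels were 7.36, 7.52 and 7.26 at P1 and 6.32 and 6.31 at P10. The groups did not overlap, and the difference was -1.06 ± 0.16 or 2.09-fold (SE, limma adjusted p = 0.000682). A dimmer second probe of Rplp0 was lower by less, at -0.54. Rplp1, which pairs with Rplp2 on the same stalk, ranged from 12.96 to 13.14 at P1 and was 12.84 and 12.72 at P10, a difference of -0.26 that did not pass the threshold (limma adjusted p = 0.374).

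Among the large subunit proteins, Rpl13a went from 7.84, 8.15 and 8.13 at P1 to 7.30 and 7.17 at P10, a fall of 0.80 ± 0.15 (limma adjusted p = 0.00279). Rpl28 was at 11.42, 11.52 and 11.52 at P1 and at 10.78 and 10.61 at P10, a fall of 0.79 ± 0.13 (limma adjusted p = 0.00145). Both sets of samples were clearly apart. Rpl22 returned from its P1 levels to 7.71 and 7.62 at P10, a fall of 0.74 ± 0.20 (limma adjusted p = 0.027). The call for Rpl22 ended when any one sample of P1 or P10 was left out, with adjusted p from 0.0534 to 0.153. Rpl4, at 7.52, 7.24 and 7.37 at P1, stood at 6.85 and 6.64 at P10, and fell by 0.63 ± 0.13 (limma adjusted p = 0.00637).

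In the small subunit, Rps10, a protein near the mRNA entry that is ubiquitinated when ribosomes collide, fell by 0.61 ± 0.12 (limma adjusted p = 0.00557). Its P1 samples were at 11.14, 11.25 and 11.02 and its P10 samples at 10.51 and 10.54, with no overlap. The other called members were Rpl29, Rps26, Rps2, Rps15a, Rpl36a and Rps9. Of these, Rps15a was dim and above background on only 1 of the 2 samples of P10. The count depended on single samples: without P10 replicate 2 it was 4, without P10 replicate 1 it was 6, and without P1 replicate 1 or P1 replicate 2 it was 7. Rplp0, Rpl13a and Rpl28 kept their calls in each of these, whereas Rpl4 lost its call without P10 replicate 2 (adjusted p = 0.0896) and Rps10 without P10 replicate 1 (adjusted p = 0.0629). The calls over all genes went from 1077 to 389 without P10 replicate 1, to 515 without P10 replicate 2 and to 699 without P1 replicate 2.

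**Figure D3:**
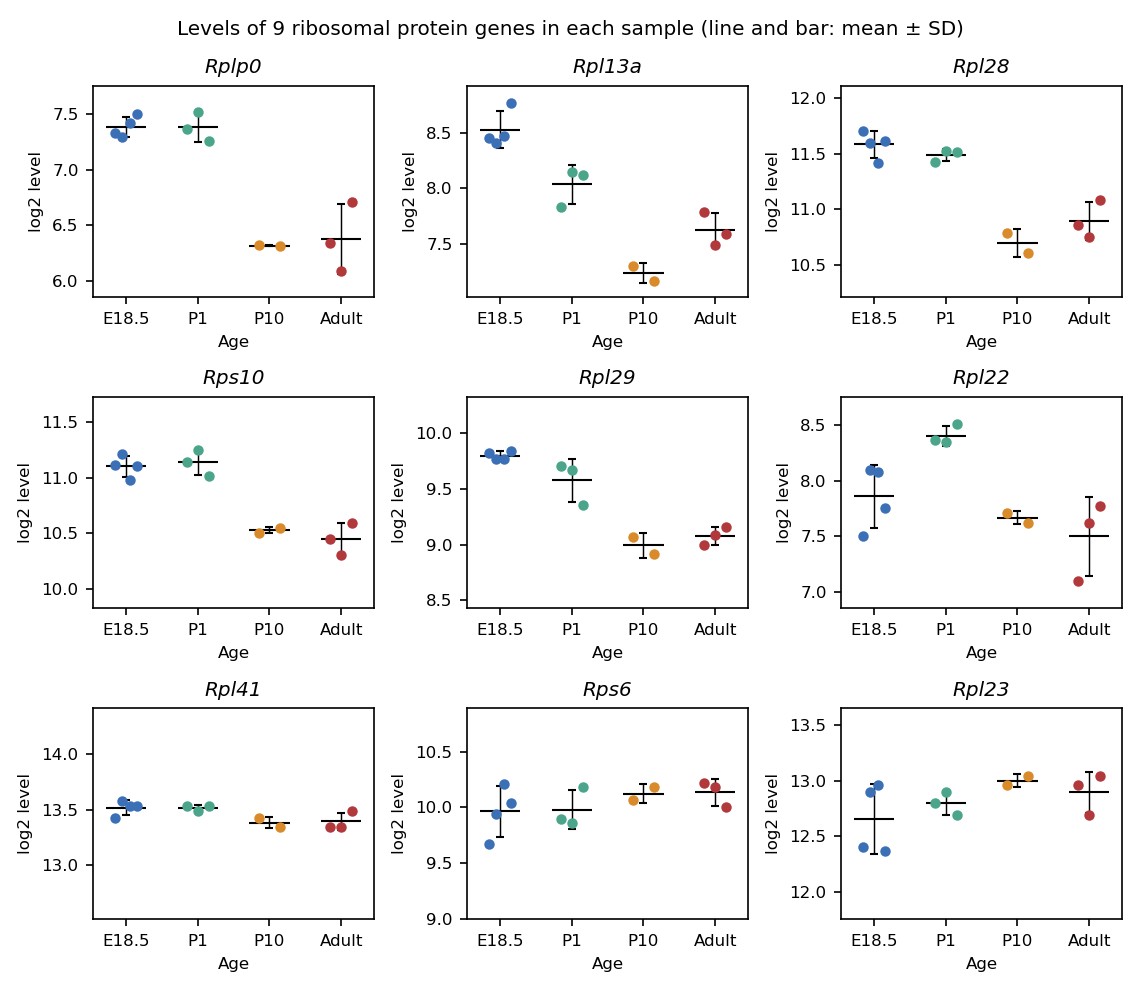
Log2 levels of 9 members in every sample by age, with a line at the mean and bars of 1 SD, on axes of equal height. Rplp0, Rpl13a, Rpl28, Rps10 and Rpl29 sit lower at P10 and in adults than at E18.5, Rpl22 is highest at P1, and the adult samples of Rpl41, Rps6 and Rpl23 overlap those of E18.5.

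After P10 little moved. From P10 to adults 1 member rose and 0 fell, 1.82% against 13.5% of all genes (6.08% higher and 7.41% lower, and 1240 in all, which became 642 when P10 replicate 1 was left out and 513 when P10 replicate 2 was), and the median difference was -0.01 over both the members and all genes. Every adult sample was above every P10 sample for 9 members, against 20.2% of all genes, and below for 5, against 22.0%. The called member was Rpl4, with levels of 7.19, 7.08 and 7.40 in adults against 6.85 and 6.64 at P10, a rise of 0.47 ± 0.13 (limma adjusted p = 0.0277). The call ended without P10 replicate 1 (adjusted p = 0.0568), P10 replicate 2 (0.244) or adult replicate 3 (0.0872), and under median centring (0.0767), within a range of 0.0212 to 0.244 over its alternatives.

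Over the whole span, adults against E18.5, 22 members fell and 0 rose with quantile normalization, 1.22-fold to 2.01-fold. They were 12 of 30 in the large subunit, 9 of 21 in the small subunit and 1 of 2 in the stalk. That is 40% called lower, against 22.1% of all genes and 30.4% of the 500 brightest other genes, and 0% called higher, against 18.7%. In total 40.8% of all genes were called, so the share of members called was near that of the array, and the members' calls all lay in 1 direction. At an unadjusted p below 0.05 in limma, 29 members were lower and 0 higher. The median difference was -0.27 over the members, -0.01 over all genes and -0.10 over the 500 brightest other genes. Every adult sample was below every E18.5 sample for 22 members, 40%, against 23.4% of all genes, and above for 0, against 19.9%.

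Rplp0 again led, at 7.33, 7.30, 7.42 and 7.50 at E18.5 and 6.34, 6.08 and 6.71 in adults, a fall of 1.01 ± 0.13 (SE, limma adjusted p = 3.33e-05). The difference of its second probe was -0.15. Rpl13a came next, from 8.46, 8.41, 8.47 and 8.77 to 7.79, 7.50 and 7.59, a fall of 0.90 ± 0.12 (limma adjusted p = 4.69e-05). In neither gene did the groups overlap.

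Rpl29, a small protein of the large subunit, lay between 9.77 and 9.84 at E18.5 and at 9.08 ± 0.08 in adults (SD, n = 3), a fall of 0.72 ± 0.11 (limma adjusted p = 9.2e-05). Rpl28 was at 10.86, 10.75 and 11.08 in adults against 11.42 to 11.71 at E18.5, a fall of 0.69 ± 0.11 (limma adjusted p = 0.000191). Rps10 was at 10.45, 10.30 and 10.60 against 10.98 to 11.21, a fall of 0.66 ± 0.10 (limma adjusted p = 0.000191). All adult samples of these 3 genes lay below all E18.5 samples.

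Rps15a and Rpl21 were dim and not well above background in any adult sample, so their differences are bounds. Rps15a was at least 1.25-fold lower in adults (limma adjusted p = 9.2e-05, mean level 5.31 at E18.5 and 4.53 in adults), and Rpl21 at least 1.11-fold lower (limma adjusted p = 0.00277, 5.14 and 4.69). The bounds set the mean of E18.5 against the lowest level above background on each adult array. Rps15a was above background on 4, 3, 1 and 0 samples of E18.5, P1, P10 and adults, and Rpl21 on 4, 3, 0 and 0. Both passed the filter only through E18.5 and P1, where they were high. Their p-values rest on adult readings not above background and add no support, though both are counted among the 22.

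The smaller falls included Rps19, the gene most often mutated in human Diamond-Blackfan anaemia. It was at 11.44, 11.26, 11.48 and 11.69 at E18.5 and 11.04, 10.86 and 10.95 in adults, a fall of 0.52 ± 0.13 (limma adjusted p = 0.00508). Of 10 tested members linked to that disease in humans, 4 fell, the same share as among all members, against 22.1% of all genes. Rpl3, near the peptidyl transferase centre, fell by 0.29 ± 0.10 (limma adjusted p = 0.0336), a call lost in 10 of 28 alternatives, with adjusted p from 0.00613 to 0.959. These included 3 scalings, the replicate block, and the fits without E18.5 replicates 2, 3 or 4 or adult replicate 2. Rpl5, which with Rpl11 and 5S RNA can hold back Mdm2, had a difference of -0.27 ± 0.12 (limma adjusted p = 0.0754). Rpl39, of the exit tunnel, had -0.23 ± 0.13 (limma adjusted p = 0.18). The remaining called members were Rps16, Rpl19, Rpl36a, Rps2, Rpl27a, Rps15, Rpl34, Rpl35, Rps13, Rps26, Rpl4, Rps7 and Rpl23a. The count was 14 without adult replicate 2.

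The 12 members lower at P10 than at P1 and the 22 lower in adults than at E18.5 had 10 members in common. This was 83.3% of the first list and 45.5% of the second. The comparisons share no sample but share one estimate of each gene's spread over all 12 samples, so the lists are not independent. The same overlap over all genes was not counted. The 10 members were Rplp0, Rpl13a, Rpl28, Rpl29, Rpl36a, Rpl4, Rps10, Rps15a, Rps2 and Rps26. Rpl22 and Rps9 were called at P10 alone, which does not show that they differ from the others in adults. In adults against E18.5 the probe used for Rps9 had a difference of -0.15, and its second probe one of -0.43.

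Other members did not follow. Rps6, the ribosomal protein that is phosphorylated downstream of mTORC1, had levels of 9.67, 9.94, 10.21 and 10.04 at E18.5 and 10.14 ± 0.12 in adults (SD, n = 3), a difference of 0.17 ± 0.13 (limma adjusted p = 0.324). Rpl23, a large subunit protein, had 0.24 ± 0.15 (limma adjusted p = 0.225). Its other 3 probes had differences of -0.14, -0.27 and -0.06. Rpl9 had 0.23 ± 0.11 (limma adjusted p = 0.103). In these genes the adult samples overlapped those of E18.5. Across the 12 samples, 40 of the 55 members had a Pearson correlation above 0.5 with the mean of the other members, and 5 were below 0, namely Rpl23, Rps6, Rps23rg1, Rps27 and Rpl9. The median correlation over pairs of members was 0.448, with quartiles of 0.163 and 0.661. These describe 12 samples that share the ages.

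With quantile normalization, Rpl41, Rpl10 and Rpl35a varied least over the 12 samples. This depends on the scaling, since with cyclic loess the difference between adults and E18.5 was 0.41 for Rpl41, which was then called higher, and 0.22 for Rpl10. Rpl41, whose protein is the shortest of the ribosome, had the brightest probe of the family, with levels between 13.35 and 13.58. Its mean level ranked 2 from the top among the genes tested. The upper reading limit of the array is not known here, and whether one hid a change was not tested. Rpl14 had the dimmest probe of the family, between 4.46 and 5.26.

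The direction of the brightest members depended on the scaling. For the 13 members with a mean level of 12 or above, a limit chosen after the values were seen, the median difference between adults and E18.5 was -0.14 with quantile normalization, -0.04 with median centring, 0.020 when the deposited intensities were used as log2 without further scaling, and 0.15 with cyclic loess. With the deposited values Rpl41 and Rpl9 were called higher in adults, and with cyclic loess Rpl41, Rpl9, Rps27 and the slightly dimmer Rps21. The counts for all 55 were then 23 lower and 2 higher, and 18 lower and 4 higher. Below a level of 12, medians were negative in every scaling: from -0.55 to -0.32 for the 17 members below 10, and from -0.38 to -0.18 for the 25 between 10 and 12. Median centring moved the median of all genes to -0.12 in this comparison, against -0.31 for the members. At P10 against P1 the median of the 13 brightest was negative in each scaling, from -0.17 to -0.10.

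**Figure D4:**
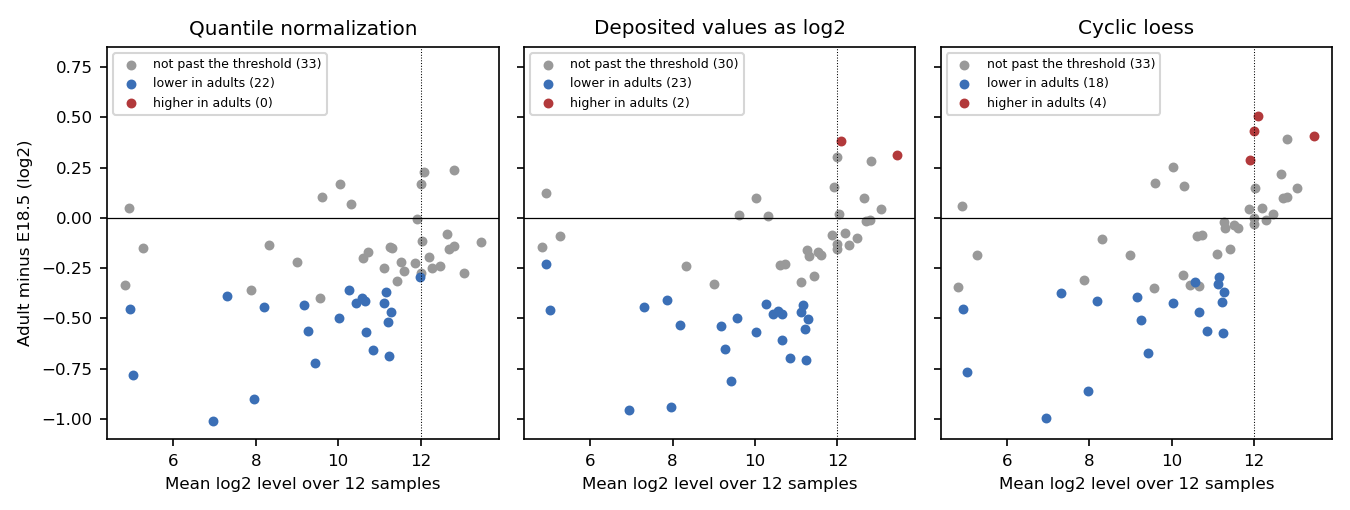
Difference between adults and E18.5 (log2) against mean log2 level over 12 samples for the 55 members, with levels from quantile normalization in all panels and differences from 3 scalings. The members called lower (22, 23 and 18) stay below a level of 12 (dotted line), while 0, 2 and 4 members at or near that level or above it are called higher.

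The acinar signal rose in the comparisons in which the members fell. When the mean acinar marker level was added to the fit as a term, an alternative chosen after seeing the data, 0 members were called at P10 against P1 and 0 in adults against E18.5, with medians of -0.18 and -0.21. At an unadjusted p below 0.05 in limma, 4 were then lower and 0 higher at P10, and 4 lower and 1 higher in adults. The calls over all genes went from 1077 to 52 and from 3754 to 144. The summed acinar levels of E18.5 and P1 did not overlap those of P10 and adults, so the term and the step in age can hardly be told apart. Cell cycle genes moved too: 26 of 27 were lower in adults than at E18.5, but 11 of 27 were higher at P10 than at P1 and 0 lower. For this list and those that follow, the shares over all genes were 22.1% lower and 18.7% higher in adults against E18.5. At P10 against P1 they were 6.15% lower and 5.57% higher. Some markers of other cells fell. Of 7 duct markers, 3 were lower and 1 higher at P10 against P1, and 5 were lower and 0 higher in adults against E18.5, with a median of -0.58. Their summed log2 level was between 11.28 and 11.64 at E18.5, 11.46 and 11.64 at P1, 10.85 and 11.15 at P10, and 10.60 and 10.70 in adults, and Sox9 and Cftr were below background at both later ages. Of 9 endothelial, stromal and blood cell markers, 6 were lower in adults than at E18.5, with a median of -1.13 and summed levels of 8.57 to 10.14 and 7.96 to 8.10. Of the 15 listed genes of this kind with a probe, 11 were below background in every adult sample. Among them were the tested Pecam1, Col1a1, Col3a1, Vim, Cd52 and Laptm5, so the count and the median rest partly on adult readings not above background. Of 8 markers of other islet endocrine cells, 3 were lower in adults than at E18.5, among them Ghrl, below background in every adult sample. Apart from terms for the acinar and the other islet markers, the part of these cells and genes in the result was not tested.

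The wider machinery was read from gene lists. Of 18 genes of translation factors and other TOP mRNAs, 3 were lower and 0 higher at P10 against P1. These are 16.7% and 0%, against 6.15% and 5.57% of all genes. In adults against E18.5, 10 were lower and 0 higher, 55.6% and 0% against 22.1% and 18.7% of all genes, with a median of -0.31. Eef2 had a difference of 0.76 in adults against E18.5 and was not called. Eif3f, named next, had one of 0.49 at P1 against E18.5. Eif3f, a subunit of initiation factor 3, fell by 0.80 ± 0.13 from P1 to P10 (limma adjusted p = 0.00148) and by 0.56 ± 0.11 from E18.5 to adults (limma adjusted p = 0.00109). Eef1b2, which recharges elongation factor 1A with GTP, fell by 0.58 ± 0.12 (limma adjusted p = 0.00535) and 0.48 ± 0.10 (limma adjusted p = 0.00126). Npm1, nucleophosmin, a nucleolar chaperone, fell by 0.88 ± 0.11 in adults (limma adjusted p = 1.56e-05).

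Ribosome assembly factors were split. Of 48 tested, 0 were called by limma at P10 against P1, against 11.7% of all genes. At an unadjusted p below 0.05 in limma, 3 of the 48 were higher and 4 lower. In adults against E18.5, 13 were lower and 4 higher, 27.1% and 8.33% against 22.1% and 18.7% of all genes. The median was -0.09. Fbl, the methyltransferase of ribosomal RNA, fell by 0.71 ± 0.13 (limma adjusted p = 0.000424), Nop58, its partner in the same particle, by 1.05 ± 0.19 (limma adjusted p = 0.000439), and Nmd3, the export adaptor of the large subunit, by 0.70 ± 0.12 (limma adjusted p = 0.000313). The difference between the assembly factors and the ribosomal protein genes, of which 12 of 55 were called lower at P10, was not tested.

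Of 13 genes of RNA polymerase I and its factors, 5 were lower (38.5%, against 22.1% of all genes) and 2 higher (15.4%, against 18.7%) in adults than at E18.5. Polr2f, a subunit shared by the 3 nuclear RNA polymerases, fell by 0.75 ± 0.14 (limma adjusted p = 0.000547). Of 25 regulators around mTORC1 and Myc, 7 were higher (28%, against 18.7% of all genes) and 4 lower (16%, against 22.1%). Mycl, a Myc family transcription factor, was not well above background in any adult sample and was at least 4.99-fold lower in adults (limma adjusted p = 2.61e-10, mean level 7.31 at E18.5 and 4.45 in adults). Its p-value too rests on adult readings not above background and adds no support. Eif4ebp1, a translation repressor that mTORC1 switches off, fell by 1.09 ± 0.21 from P1 to P10 (limma adjusted p = 0.00382), and higher in adults than at E18.5 by 1.23 ± 0.18 (limma adjusted p = 6.77e-05). Of 5 ribosomal proteins and variants outside the naming rule, Rpl7l1, Rps27l, Fau, Rpl36al and Rpl22l1, 0 were called in any comparison by limma, and 0 had an unadjusted p below 0.05.

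Outside the family, the 5 genes whose levels over the 12 samples were most like the members' mean by Pearson correlation were Gdf3 (0.954), Polr2f (0.940), Cox7a1 (0.937), Mrpl52 (0.931) and Nectin2 (0.926). These were picked for that likeness from all genes. In adults Gdf3, at 5.20, 4.77 and 4.70, and Cox7a1, at 5.09, 4.63 and 4.67, were close to background. The correlations of these genes rest partly on such readings.

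The promoter table held 47 of the 55 members, 45 of them ribosomal proteins, and 1 member on chromosome 18 was not looked up. A run of at least 8 C or T bases within 25 bases either side of the annotated start was present on the gene's strand in 23 of 45 (51.1%), against 22.2% of 26978 other genes. On the other strand it was present in 8.89% and 24.4%. Of the 23 with a run, 10 were lower in adults than at E18.5 (median -0.31) and 7 at P10 than at P1. Of the 22 without, 8 were lower in adults (median -0.26) and 4 at P10. Of all genes 22.1% and 6.15% were lower in these comparisons, and the difference between members with and without a run was not tested. Among the printed windows, the longest run was 5 bases in Rplp0, which fell most, and 10 in Rps15a. Both lay wholly before the annotated first base, at -14 to -10 and -15 to -6, as did those of Rpl9 and Rpl23. That of Rpl13a began at base 3. The longest runs of Rpl28, Rpl13a, Rps10, Rpl35 and Rpl27a, also called lower in adults, were 11, 13, 13, 18 and 19. Those of Rps6, Rpl9 and Rpl23, with no called difference under quantile normalization, were 10, 4 and 3. The windows were picked after values were seen. A match describes letters in this window only.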

How the data were processed

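Total RNA of sorted cells was labelled with biotin and hybridised to Illumina arrays, per the labels' protocols. The deposited table holds the intensity of 25697 probes in 12 samples on a linear scale, and no source used here gives the authors' scaling, scanner software or background treatment. A second table, with 24 columns whose names match no sample, was not used. The design had assumed detection p-values; background was therefore estimated from the signals.

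Intensities were corrected with normexp (offset 16), quantile normalized and taken to log2. A probe was above background when it exceeded a limit at p 0.01, set from the mode of the log2 signals and the spread below it. Of several forms of this limit tried, this one was taken because its number of kept probes, 13201, came closest to that of an earlier analysis of these data. The first form tried, on the linear scale, kept 14179 and is given among the alternatives. Probes above it on at least 2 arrays were kept, and the brightest per gene was tested. Probes of ribosomal protein genes may also bind copies such as pseudogenes, which was not tested. Names came from the platform table, updated through RefSeq, and 1719 probes are unnamed here.

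limma 3.58.1 (R 4.3.3; lmFit, eBayes) was fitted to all 12 samples over 9193 genes with age as the factor, with Benjamini-Hochberg adjustment and a threshold of 0.05. Fits were tested on simulated data. Figures used matplotlib 3.10.9 in Python 3.11.15. The members and gene lists were chosen with earlier results of these data known. Named were, per comparison, up to 6 falls and 6 rises past the threshold without overlap, fixed members, the brightest, dimmest and least variable members, 3 genes per other list and the 5 most alike; further names were given because they were called or after their values were seen. The level bands, the promoter windows printed and the reading of the naming rule were also set after values were seen. Alternatives were other scalings, filters, probe summaries, eBayes settings, array weights, a replicate block, only the ages compared, each sample left out, and, added after seeing the data, 2 marker terms, 2 other readings of the members and the linear limit.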

Additional observations from a re-analysis of the deposited data

Results flagged for a closer look

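Dixon's test on the 4 samples of E18.5 was run for the 55 members and their mean, 56 in all, and marks about 1 in 20 by chance. It marked Rpl35, at 11.24 in replicate 2 with the other samples between 11.46 and 11.48, and Rps20, at 13.04 in replicate 4 with the others between 12.80 and 12.84. The number marked is no higher than chance gives.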

How the results depend on the processing

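At P10 against P1 and in adults against E18.5, the median of the members was negative under every alternative run, and more members were called lower than higher under each but the marker term given next. With a term for the mean acinar marker level in the fit, added after seeing the data, the counts of called members were 2 over all ages, 1 at P1 against E18.5, 0 at P10 against P1 and 0 in adults against E18.5. With samples left out one at a time, the counts ran from 17 to 23 over all ages, from 0 to 3 at P1 against E18.5, from 4 to 12 at P10 against P1, from 0 to 1 in adults against P10 and from 14 to 24 in adults against E18.5. In adults against P10, with 1 call as reported, the count was 2 without background correction, with an offset of 50, when probes of a gene were averaged and with array weights, 3 with cyclic loess, and 0 with median centring, the other islet markers as a term, only the ages compared, or the naming rule read to the letter. Cyclic loess moved the median of the members to 0.096 in adults against P10 and to -0.15 in adults against E18.5. Calls over all genes ran from 114 to 592 at P1 against E18.5 with samples left out one at a time, and were 323, 320 and 223 when E18.5 replicates 2, 3 and 4 were omitted in turn and 277 when P1 replicate 3 was. With the linear background limit, 56 members were tested, and 12 were called at P10 against P1 and 21 in adults against E18.5. Median centring moved the split of all calls, to 149 higher and 349 lower at P1 against E18.5 (238 and 265 as reported), 379 and 832 in adults against P10 (559 and 681), and 1186 and 2655 in adults against E18.5 (1719 and 2035). The causes of these moves were not tested. Dim members near background limit what could be seen, and the level of Rpl41, near the top of the signals, may do so too.

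The replicate numbers were not taken to pair the samples, since only 5 of 15 same-numbered pairs had a correlation of their deviations above 0.1 (from -0.0714 to 0.278). Of the 11 samples with a same-numbered partner, 6 correlated best with one. The number to be met without pairing was not worked out, so this count cannot decide. The 2 samples of P10 deviate from their mean as mirror images, so any sample's correlations with them are equal and opposite. For E18.5 replicate 1 they were 0.278 and -0.278. With the replicate block the counts were 18 over all ages, 0 at P1 against E18.5, 11 at P10 against P1, 1 in adults against P10 and 19 in adults against E18.5, 18 of these lower and 1, Rpl9, higher. With this block, differences were 0.032 for Rplp0, -0.018 for Rpl5 and 0.028 for Rpl39 at P1 against E18.5, and -0.045 for Rps6 in adults against P10.

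Sign changes mostly befell differences that had not passed the threshold. Exceptions among the 55 members, in adults against E18.5, were Rps2, called lower as reported and at 0.17 with the acinar term (adjusted p = 0.837), and Rpl41 and Rps21, which passed the threshold as higher after their sign changed. With median centring, values at P1 against E18.5 were -0.081 for Rps6, -0.041 for Rpl3 and -0.053 for Rpl5. Those in adults against P10 were -0.021 for Rplp0, -0.0046 for Rps6, 0.024 for Rpl3 and 0.038 for Rpl39, and those in adults against E18.5 were 0.26 for Rpl41 and 0.043 for Rpl10. With cyclic loess, values in adults against P10 were 0.096 for Rpl3, 0.050 for Rps19 and 0.11 for Rpl39, and in adults against E18.5 0.15 for Rplp1, 0.044 for Rpl39, 0.41 for Rpl41 and 0.22 for Rpl10. With the deposited values as log2, values at P1 against E18.5 were -0.068 for Rps6, -0.029 for Rpl3 and -0.041 for Rpl5. Those in adults against P10 were 0.081 for Rpl3, 0.0225 for Rps19 and 0.095 for Rpl39, and those in adults against E18.5 were 0.044 for Rplp1, 0.31 for Rpl41 and 0.10 for Rpl10. Array weights gave 0.027 for Rplp0 and -0.075 for Rps6 at P1 against E18.5, and -0.063 for Rplp0 and -0.023 for Rpl5 in adults against P10. The mean of a gene's probes gave 0.017 for Rplp0 at P1 against E18.5. The acinar term gave 0.077 for Rplp0 at P1 against E18.5, 0.0018 for Rps19 at P10 against P1, 0.03 for Rps19 in adults against P10, and 0.33 for Rpl10 and 0.035 for Rpl35a in adults against E18.5. The other islet term gave -0.15 for Rplp0 in adults against P10. With samples left out one at a time, differences at P1 against E18.5 ran from -0.085 to 0.098 for Rps6, from -0.077 to 0.056 for Rplp0, from -0.068 to 0.071 for Rpl5 and from -0.16 to 0.091 for Rpl39. Those in adults against P10 ran from -0.049 to 0.078 for Rps6, from -0.14 to 0.086 for Rpl39, from -0.074 to 0.062 for Rps19, from -0.045 to 0.16 for Rpl5, from -0.31 to 0.033 for Rpl22, from -0.14 to 0.041 for Rpl3 and from -0.10 to 0.21 for Rplp0.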
